A study of Mus musculus with 8 samples.

Results

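Glycolysis splits glucose into pyruvate, and the 10 genes described here cover most of that route: the glucose transporter gene Slc2a1, the hexokinase genes Hk1 and Hk2, the isomerase gene Gpi1, the phosphofructokinase genes Pfkl and Pfkp, and Aldoa, Pgk1, Pgam1 and Pkm. They were taken by name from the 32285 genes of a table of unique molecular identifier (UMI) counts, which are counts of single captured RNA molecules, and all 10 had counts. The study took nuclei from mouse marrow cells sorted as Lin-Sca1+ckit+ (LSK), where stem cells of the blood and their early progeny are found, of T58A mice, which carry a point mutation of MYC, and of WT littermates. Per the labels, 2 RNA samples per genotype were made with the 10x multiome assay, each from LSK cells pooled over 2 mice, and 4 ATAC samples made beside them were not used here. Barcodes in the table carry a suffix that makes 4 sets, but no label ties a set to T58A or to WT and the table is named for T58A alone, so T58A and WT were not compared and the table is 1 sample without replicates. Values per barcode set stand beside the main results, and the sets are not treated as replicates.

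Several steps of the route are carried out by families of closely related enzymes. Hexokinases trap glucose in the cell as glucose 6-phosphate, Gpi1 turns this into fructose 6-phosphate, and phosphofructokinases, the main control point, add the next phosphate. Aldolase (Aldoa) splits the sugar, phosphoglycerate kinase (Pgk1) makes ATP, phosphoglycerate mutase (Pgam1) moves a phosphate, and pyruvate kinase (Pkm) makes ATP and pyruvate. Red cells lose their mitochondria and live from glycolysis, with enzymes that include products of Hk1, Pfkm and Pklr. Hematopoietic stem cells are known for relying on glycolysis, and MYC and the hypoxia factor HIF1A are known regulators of many genes of the route.

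The table held 8708 nuclei and 45723860 UMIs, with 1001 to 24786 UMIs per nucleus and a median of 4147.5. Mitochondrially encoded genes took 24.6%, 9.98%, 24.2% and 9.22% of the UMIs in barcode sets 1 to 4, and 36 barcode sequences occurred in more than 1 set. Levels are counts per 1000000 non-mitochondrial UMIs (CPM), summed over the nuclei of a class, and every interval is a 95% interval that covers counting error only. A nucleus entered a class when it had a UMI for at least 3 of 8 marker genes and the largest share of that list. This gave 863 lymphoid progenitor-like, 854 myeloid progenitor-like, 206 megakaryocyte-like, 510 erythroid progenitor-like and 1695 HSC-like nuclei, with 3916 nuclei ungated. Smaller classes held 164 monocyte and dendritic cell-like, 144 plasma cell-like, 123 B lineage-like, 104 neutrophil-like and 81 late erythroid-like nuclei, and 3 classes under 50 nuclei are not described.

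The classes are ranges on a count of markers. Of the HSC-like nuclei, 62.5% (1060) sat exactly at 3 markers, and 1605 nuclei outside the class had 2 markers of that list, whereas 11.8% (60) of the erythroid progenitor-like nuclei sat at 3. Median marker counts of other classes were 0 or 1 in the progenitor-like and HSC-like classes, except for 2 HSC markers in megakaryocyte-like nuclei. The gate for monocytes and dendritic cells was carried by Cd74, H2-Aa, Plbd1 and Clec9a, genes of antigen-presenting cells, while the monocyte gene Csf1r stood at 17.5 CPM in it, against 14.1 CPM in all other nuclei. No doublet caller was run. A total of 1017 nuclei met the minimum for several classes, among them 149 of the erythroid progenitor-like nuclei.

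Median depth was 4734 non-mitochondrial UMIs per lymphoid, 5334.5 per myeloid, 4548 per megakaryocyte, 5996.5 per erythroid and 4001 per HSC-like nucleus. Mitochondrial shares were 12.99%, 17.5%, 15.3%, 27.3% and 12.8% in the same order, and the shares of nuclei with at least 3 of 12 cell cycle genes were 57.1%, 80.6%, 73.3%, 94.1% and 41.8%. Malat1, a nuclear RNA taken here as a sign of RNA quality, stood at 10239, 7233, 12040.4, 7677 and 12263 CPM. These measures moved with the classes, and their part in the levels was not tested beyond the settings named beside a result. Over all nuclei the 10 genes had between 802 UMIs (Slc2a1) and 4099 UMIs (Hk2).

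The promoters of 6 genes are shown because their levels differed between a progenitor-like class and HSC-like nuclei. They are Hk1, Pkm and Pklr, which set erythroid progenitor-like nuclei apart, Hk2, which was low there, and Gpi1 and Pgam1, which were high in myeloid progenitor-like nuclei. Slc2a1 and Pfkp, also low in erythroid progenitor-like nuclei, are not shown. Each is the RefSeq window of 250 bases before an annotated start on GRCm38.p6 (mm10), 5′ to 3′ on the gene's strand: Hk1 at chr10:62379909-62380158 (minus strand), Pkm at chr9:59656326-59656575 (plus), Pklr at chr3:89135892-89136141 (plus), Hk2 at chr6:82774455-82774704 (minus), Gpi1 at chr7:34230337-34230586 (minus) and Pgam1 at chr19:41911621-41911870 (plus). Capitals mark GATAA, the letters read by GATA factors, and ACGTG, a form of the core of the hypoxia response element, each on either strand. TTATC and CACGT are thus the same letters read from the other strand. The form GCGTG was not searched and is not marked.
Hk1: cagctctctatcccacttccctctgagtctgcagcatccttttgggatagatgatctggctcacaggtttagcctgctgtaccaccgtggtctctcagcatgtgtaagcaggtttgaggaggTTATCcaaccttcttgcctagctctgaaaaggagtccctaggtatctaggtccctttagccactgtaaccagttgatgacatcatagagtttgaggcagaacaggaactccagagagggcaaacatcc
Pkm: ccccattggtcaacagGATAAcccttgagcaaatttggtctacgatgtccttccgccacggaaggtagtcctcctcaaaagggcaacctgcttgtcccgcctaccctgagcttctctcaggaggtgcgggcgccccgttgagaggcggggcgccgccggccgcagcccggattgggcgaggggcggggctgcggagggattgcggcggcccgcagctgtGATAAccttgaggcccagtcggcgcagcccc
Pklr: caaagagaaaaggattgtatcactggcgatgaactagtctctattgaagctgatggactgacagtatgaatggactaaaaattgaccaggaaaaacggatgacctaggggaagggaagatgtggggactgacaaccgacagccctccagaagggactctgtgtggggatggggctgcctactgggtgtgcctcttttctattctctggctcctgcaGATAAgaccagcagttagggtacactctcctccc
Hk2: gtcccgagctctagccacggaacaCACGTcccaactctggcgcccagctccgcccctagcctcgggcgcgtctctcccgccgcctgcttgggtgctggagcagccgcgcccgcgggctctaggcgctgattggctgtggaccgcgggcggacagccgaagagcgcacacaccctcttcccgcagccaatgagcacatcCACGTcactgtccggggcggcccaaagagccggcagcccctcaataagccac
Gpi1: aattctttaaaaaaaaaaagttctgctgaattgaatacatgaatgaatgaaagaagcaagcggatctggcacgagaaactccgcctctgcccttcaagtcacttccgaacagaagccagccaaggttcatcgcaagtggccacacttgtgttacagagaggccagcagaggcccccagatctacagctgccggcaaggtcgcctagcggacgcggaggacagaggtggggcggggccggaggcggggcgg
Pgam1: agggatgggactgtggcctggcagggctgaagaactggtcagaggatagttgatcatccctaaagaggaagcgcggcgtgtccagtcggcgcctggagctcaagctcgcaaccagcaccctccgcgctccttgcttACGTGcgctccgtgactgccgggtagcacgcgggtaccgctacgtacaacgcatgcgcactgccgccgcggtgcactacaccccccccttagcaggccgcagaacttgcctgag
All 10 genes matched a RefSeq entry, with 14 windows among them, of which 2 Aldoa windows overlap. The letters CACGTG, the E-box read by MYC and MAX, were in 0 of the 14 windows and in 6.02% of the 32851 windows of all genes. ACGTG, which every CACGTG contains, was in 7 windows of 6 genes, against 16.6% of all windows. GATAA was in 3 windows of 3 genes (Hk1, Aldoa and Pkm), against 22.6% of all windows, and in 1 of 2 windows of Pklr, the one shown. Hk1 and Pkm also had 2 windows each, and the one shown is the one with GATAA. The other Hk1 window had none of these letters, and the other Pkm window had ACGTG but no GATAA. Pfkm, not shown, had GATAA in 3 of 4 windows and CACGTG in 1. A match describes letters in a short window and nothing about binding.

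Summed over the 10 genes, levels ran from 281 CPM in plasma cell-like nuclei (235 to 334) to 802 CPM in myeloid progenitor-like nuclei (778 to 826). Monocyte and dendritic cell-like nuclei reached 764 CPM and neutrophil-like nuclei 722 CPM. Megakaryocyte-like nuclei had 503 CPM, lymphoid progenitor-like 468 CPM, erythroid progenitor-like 376 CPM (356 to 397) and HSC-like nuclei 565 CPM (549 to 581). The median nucleus held 4 UMIs of the 10 genes together in the myeloid class, 2 in the erythroid and 2 in the HSC-like class, so the levels describe classes and not single nuclei.

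**Figure D1:**
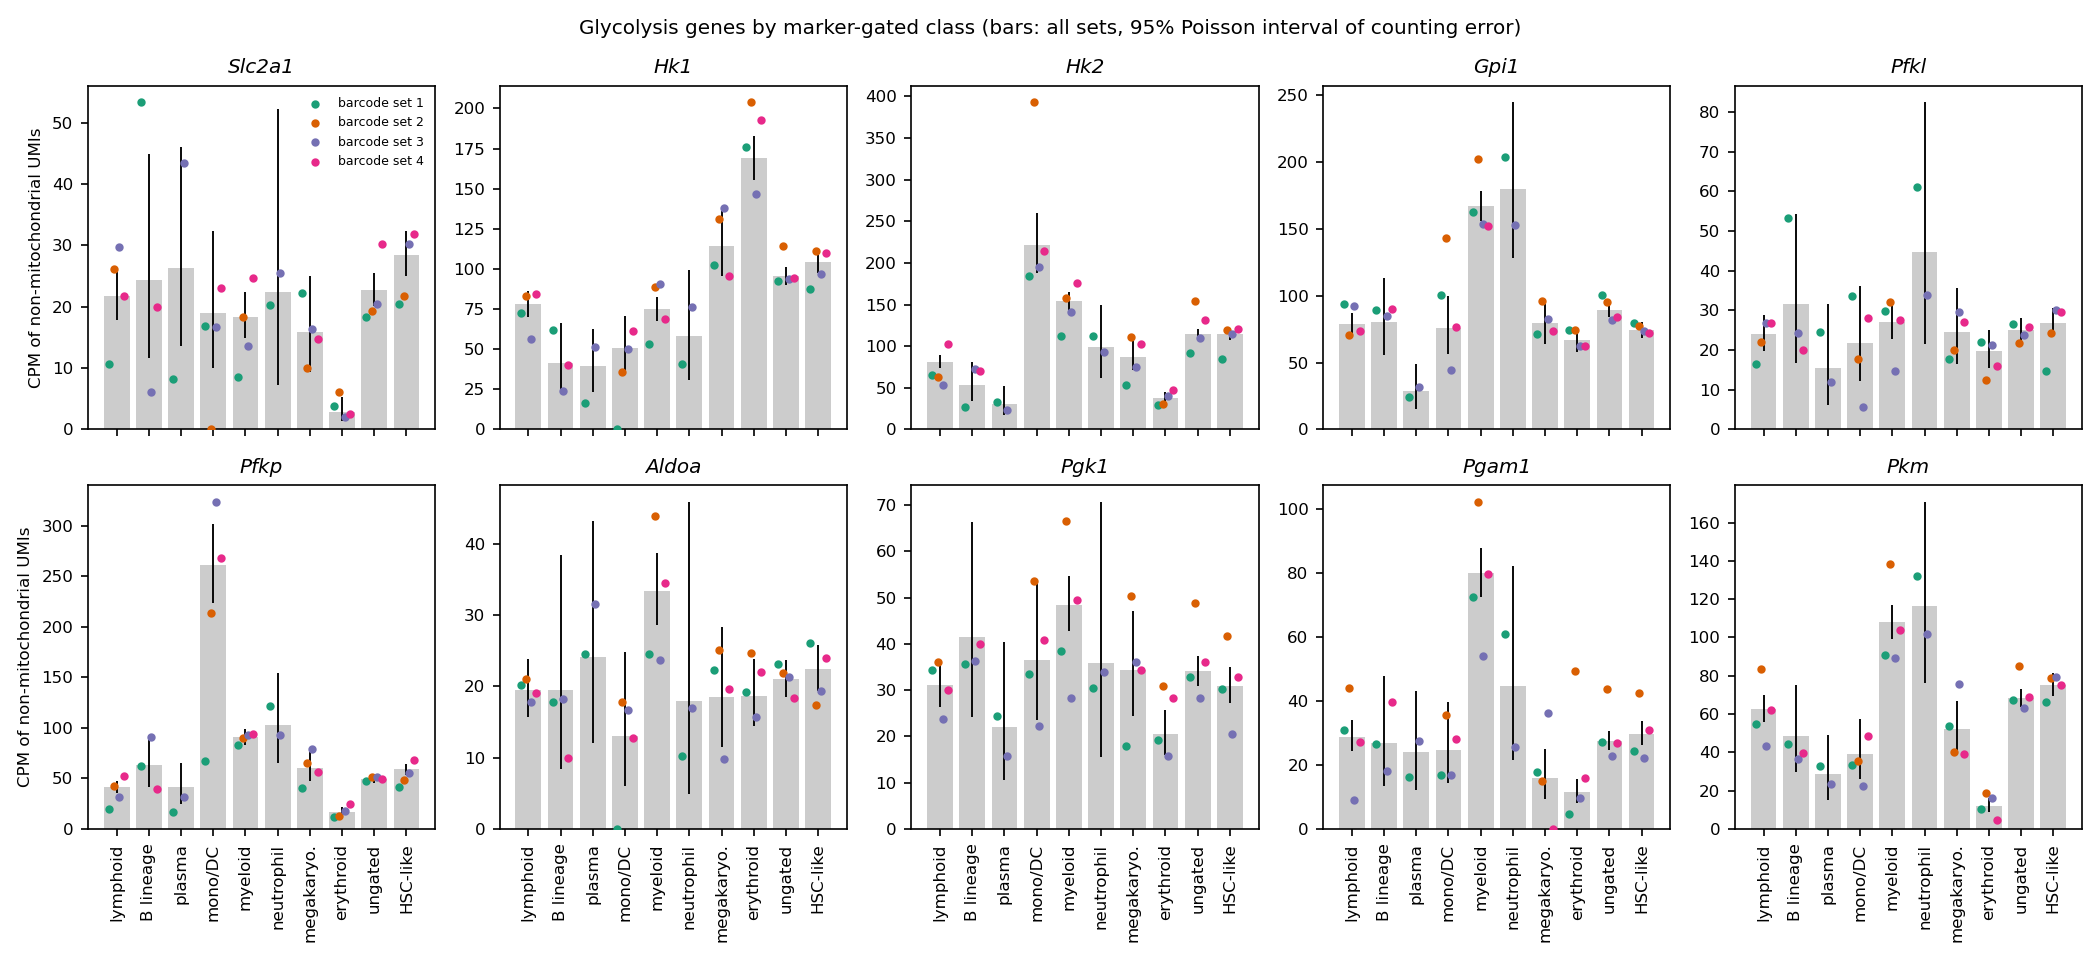
Level of each of the 10 genes (CPM of non-mitochondrial UMIs, y axes from 0 with a scale per gene) in the 10 classes with at least 100 nuclei. Bars are all barcode sets together with 95% Poisson intervals, and points are single barcode sets with at least 10 nuclei of the class. Hk1 peaks in the erythroid class at 169 CPM, Hk2 and Pfkp in the monocyte and dendritic cell-like class at 222 and 261 CPM, and Gpi1 and Pgam1 stand high in the myeloid class at 167 and 80.1 CPM.

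Each gene had its own order over the 10 classes with at least 100 nuclei, and most neighbours in an order were not separated, meaning that the interval of their ratio held 1 or the direction differed between barcode sets. Slc2a1, the widespread glucose transporter (chr4:119108745-119137330 on GRCm38.p6), lay between 15.9 CPM in megakaryocyte-like and 28.4 CPM in HSC-like nuclei in 9 classes. Its level was 2.88 CPM in erythroid progenitor-like nuclei, the only class separated from its neighbour. Hk1 (chr10:62268855-62379920) was highest in erythroid progenitor-like nuclei, at 169 CPM, and lowest in plasma cell-like nuclei, at 39.6 CPM. The erythroid class was separated from the megakaryocyte-like class (115 CPM), and ungated nuclei (95.4 CPM) from lymphoid progenitor-like nuclei (78.1 CPM).

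The order of Hk2, the inducible hexokinase (chr6:82725025-82774454), was different. Hk2 led in monocyte and dendritic cell-like nuclei, at 222 CPM, and was separated there from myeloid progenitor-like nuclei, at 154 CPM, which were separated from ungated nuclei, at 115 CPM. From ungated nuclei down it ran without separated neighbours over HSC-like (114 CPM), neutrophil-like (98.6 CPM), megakaryocyte-like (87.2 CPM), lymphoid (81.4 CPM), B lineage-like (53.6 CPM), erythroid (38.3 CPM) and plasma cell-like nuclei (30.8 CPM). The top class of Hk1 was thus near the bottom for Hk2.

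Gpi1 (chr7:34201327-34230336) had 2 high classes. Neutrophil-like (179 CPM) and myeloid progenitor-like nuclei (167 CPM) were not separated from each other, and the myeloid class was separated from ungated nuclei (89.3 CPM). Another 6 classes lay between 66.4 and 80.4 CPM, and plasma cell-like nuclei, at 28.6 CPM, were separated from the erythroid class above them. Pfkp, the platelet-type phosphofructokinase (chr13:6579874-6649060), ran from 261 CPM in monocyte and dendritic cell-like to 17.3 CPM in erythroid progenitor-like nuclei. Of its neighbours only the lymphoid (41.5 CPM) and the erythroid class were separated. Pfkl, the liver-type form (chr10:77986947-78009807), lay between 44.8 CPM in neutrophil-like and 15.4 CPM in plasma cell-like nuclei, with 0 of 9 neighbours separated.

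The later steps were highest in the myeloid or the neutrophil-like class. Their genes are Aldoa (chr7:126795234-126800994), Pgk1 (chrX:106187100-106203699), Pgam1 (chr19:41911871-41918665) and Pkm (chr9:59656576-59679372). Aldoa (33.4 CPM), Pgk1 (48.4 CPM) and Pgam1 (80.1 CPM) were each highest in myeloid progenitor-like nuclei, with no separated neighbours. Their lowest classes were monocyte and dendritic cell-like nuclei for Aldoa (13.1 CPM) and erythroid progenitor-like nuclei for Pgk1 (20.4 CPM) and Pgam1 (11.5 CPM). Pkm was highest in neutrophil-like nuclei (117 CPM), followed by myeloid progenitor-like nuclei (108 CPM), which were separated from HSC-like nuclei (75.4 CPM) below them. Erythroid progenitor-like nuclei, at 12.1 CPM, were separated from plasma cell-like nuclei, at 28.6 CPM. Reads that also match processed pseudogenes, which Aldoa, Pgk1, Pgam1 and Gapdh are known to have, may be divided or dropped in counting, and this was not tested.

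Of the 5 comparisons in which calls were made, that of erythroid progenitor-like with HSC-like nuclei had the most of the 10 genes called. A call needed at least a 1.5-fold ratio after 10 was added to each CPM, and 1 direction throughout the 4 barcode sets, which is a description and not a test. Of the 10 genes 1 was called higher (Hk1) and 4 lower (Pkm, Slc2a1, Hk2 and Pfkp), while 12.3% of the 10834 measured genes were called higher, 20.6% lower and 32.9% either way. The median log2 ratio was -0.66 over the 10 genes and -0.03 over all measured genes, and by set it ran from -0.80 in set 1 to -0.48 in set 2. These nuclei came from set 1 (187), set 2 (12), set 3 (236) and set 4 (75).

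Hk1, whose product is the hexokinase of red cells, stood at 176, 204, 147 and 193 CPM in erythroid progenitor-like nuclei of sets 1 to 4, against 87.5, 111, 97.2 and 110.0 CPM in HSC-like nuclei. All erythroid values lay above all HSC-like values. How often all measured genes lacked overlap between sets was not counted for any comparison. Lack of overlap, here and below, therefore describes single genes only. The ratio was 1.62 (1.46 to 1.80), a log2 ratio of 0.65 with 10 added. The call was lost over all UMIs, where the log2 ratio was 0.40, and when nuclei were thinned to 2000 UMIs before gating, where it was 0.77 but not in the same direction in every set. Mitochondrial UMIs took 27.3% in erythroid and 12.8% in HSC-like nuclei, which sets the gap between both denominators.

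Pkm, which codes for the pyruvate kinase of most tissues, stood at 10.6, 18.5, 16.4 and 4.91 CPM in erythroid progenitor-like nuclei, against 66.2, 79.1, 79.4 and 75.3 CPM in HSC-like nuclei. The groups did not overlap, and Pkm was 6.24-fold lower (4.56 to 8.74; 42 against 636 UMIs). Slc2a1 rested on 10 UMIs in the erythroid class, at 3.85, 6.18, 2.05 and 2.45 CPM, against 20.4, 21.7, 30.2 and 31.8 CPM in HSC-like nuclei, and was 9.89-fold lower (5.29 to 20.9). These were the 2 steepest drops among the 10 genes. The call of Pkm was lost with nuclei of several classes left out, at a log2 ratio of -1.96, where the sets no longer went 1 way. After thinning Slc2a1 fell under the minimum of 50 UMIs over both classes that a call needed, at -1.54.

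Hk2 stood at 29.8, 30.9, 39.7 and 47.9 CPM in erythroid progenitor-like nuclei, against 84.2, 119.9, 114 and 121 CPM in HSC-like nuclei, 2.98-fold lower (2.48 to 3.60). Pfkp stood at 11.5, 12.4, 17.8 and 24.5 CPM, against 41.7, 48.6, 55.6 and 68.2 CPM in HSC-like nuclei, 3.41-fold lower (2.61 to 4.54). Neither gene had overlapping sets. Among nuclei under 10% mitochondrial UMIs only 26 erythroid progenitor-like nuclei were left, and there Hk1 kept its call and the 4 lower genes lost theirs at log2 ratios from -2.19 to -0.63. With only cycling nuclei on both sides, a setting chosen after seeing the data, the same 5 genes were called.

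The other 5 genes were not called in this comparison. Pgam1 was at 11.5 CPM in erythroid progenitor-like nuclei, against 29.8 CPM in HSC-like nuclei (log2 ratio -0.89), but set 2, with 12 erythroid nuclei, went the other way at 49.4 against 42.6 CPM. Pgam1 was called lower at -0.94 without barcode set 2, at -1.03 with nuclei of several classes left out and at -1.19 after thinning, where Aldoa was also called lower at -0.70. Pgk1 had 20.4 against 30.9 CPM, Pfkl 19.8 against 26.9 CPM, Aldoa 18.7 against 22.4 CPM and Gpi1 66.4 against 74.0 CPM. The interval of the erythroid over HSC-like ratio held 1 for Aldoa (0.620 to 1.11) and Gpi1, and its upper bound was 0.861 for Pgk1 and 0.970 for Pfkl.

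**Figure D2:**
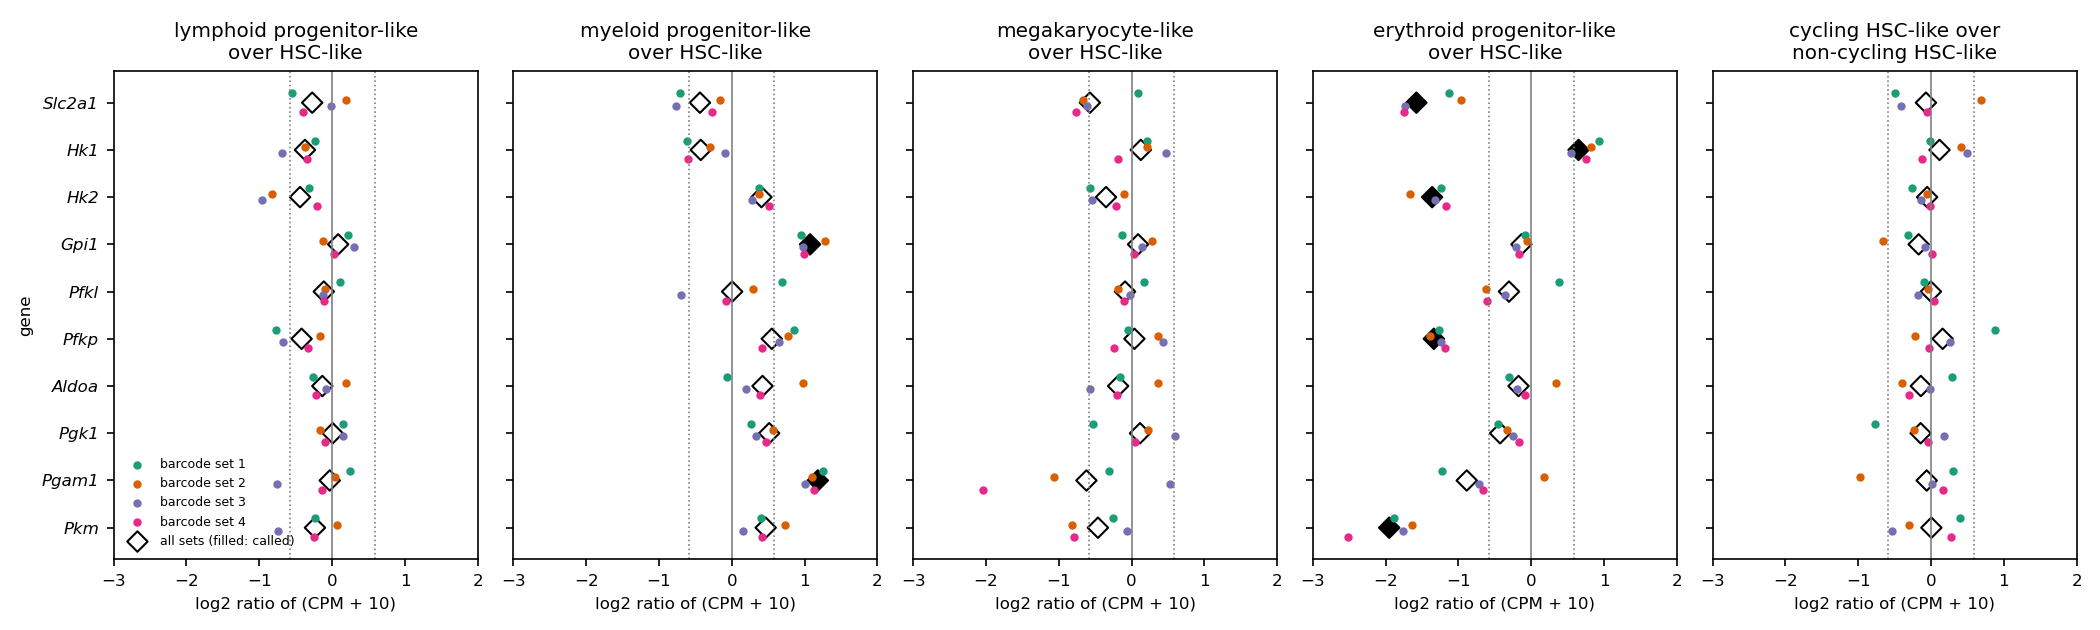
Log2 ratio of CPM plus 10 (x axes) for the 10 genes (rows) in 5 comparisons, each named as the class over its comparison class. Diamonds are all barcode sets together, filled where called, points are single sets, and dotted lines mark 1.5-fold. Filled diamonds appear for Gpi1 and Pgam1 in the myeloid panel and for Hk1, Pkm, Slc2a1, Hk2 and Pfkp in the erythroid panel, and in no other panel.

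Other genes of glucose handling, 50 in number and grouped by step, were read in the same way. In erythroid progenitor-like nuclei 10 of 36 measured genes were called higher and 8 lower, beside 12.3% and 20.6% of all measured genes, so that the number lower was close to the background. On the log2 scale with 10 added, the highest were the erythroid and liver pyruvate kinase gene Pklr and the lactate and pyruvate transporter gene Slc16a1, and also called higher were Pfkm, Rpia, Dlat, Taldo1, Tkt, Rpe, Pgd and Mpc1. On the same scale the lowest called were the hexokinase gene Hk3, at 6.33 against 43.1 CPM in HSC-like nuclei, and Egln3, a prolyl hydroxylase gene of the oxygen response, at 3.16 against 25.6 CPM. Ldhb, a lactate dehydrogenase gene, had 0 UMIs, against 81 UMIs in HSC-like nuclei, and Pfkfb3, Txnip, Pdk3, Hif1a and Pfkfb4 were also lower. Of the 6 pentose phosphate genes, which make NADPH and ribose from glucose 6-phosphate, 5 were higher, with Rpia at 54.9 against 21.8 CPM and Tkt at 236 against 122 CPM.

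Pklr stood at 84.7, 30.9, 87.6 and 94.5 CPM in erythroid progenitor-like nuclei of sets 1 to 4, against 0, 0, 1.08 and 0.475 CPM in HSC-like nuclei. The ratio was 181 (69.9 to 668), from 298 against 4 UMIs. Pfkm, the muscle-type phosphofructokinase gene, stood at 91.4, 67.9, 86.9 and 79.8 CPM, against 23.7, 24.3, 16.7 and 16.4 CPM in HSC-like nuclei, a ratio of 4.61 (3.78 to 5.62). Slc16a1 stood at 157, 161, 168 and 252 CPM, against 26.2, 39.1, 46.4 and 46.6 CPM in HSC-like nuclei, a ratio of 4.32 (3.79 to 4.93). In none of these genes did the groups overlap. The transporter gene Slc2a3 was not called, at 148 against 124 CPM (ratio 1.19, 1.07 to 1.33).

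Within enzyme families the make-up of the UMIs was set side by side between classes. UMIs of different genes depend on gene length and on intronic priming in nuclei, so a share is read only between classes. Hk1 took 79.1% (76.0 to 82.0%) of the hexokinase UMIs of Hk1, Hk2 and Hk3 in erythroid progenitor-like nuclei, against 39.8% (37.8 to 41.9%) in HSC-like nuclei, and 76.7 to 82.5% against 37.3 to 42.0% by set. Among phosphofructokinases Pfkm took 69.8% (65.2 to 74.1%) in the erythroid class, against 17.8% (15.3 to 20.5%) in HSC-like nuclei, and 66.3 to 73.3% against 14.3 to 29.6% by set.

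Pklr took 87.6% (83.7 to 91.0%) of the pyruvate kinase UMIs of Pkm and Pklr in the erythroid class, against 0.625% (0.171 to 1.59%) in HSC-like nuclei. The share by set was 62.5 to 95.1%, against 0 to 1.34%. Slc2a3 took 98.1% (96.5 to 99.1%) of the transporter UMIs of Slc2a1 and Slc2a3, against 81.4% (79.1 to 83.5%) in HSC-like nuclei. The erythroid and the HSC-like shares did not overlap between sets for any of the 4 families. Other gene families were not looked at in this way. In the 81 late erythroid-like nuclei Hk1 stood at 171 CPM (109.7 to 255), with 24 of 27 hexokinase UMIs. Pfkp had 0 UMIs there, with an interval that reached 26.3 CPM. Pfkm had 10 of 12 phosphofructokinase UMIs in this late class. Pklr had 1 of 3 pyruvate kinase UMIs there, too few to read a share. Slc2a3 stood at 35.7 CPM in the late class, 0.287 times (0.0931 to 0.672) the HSC-like level.

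**Figure D3:**
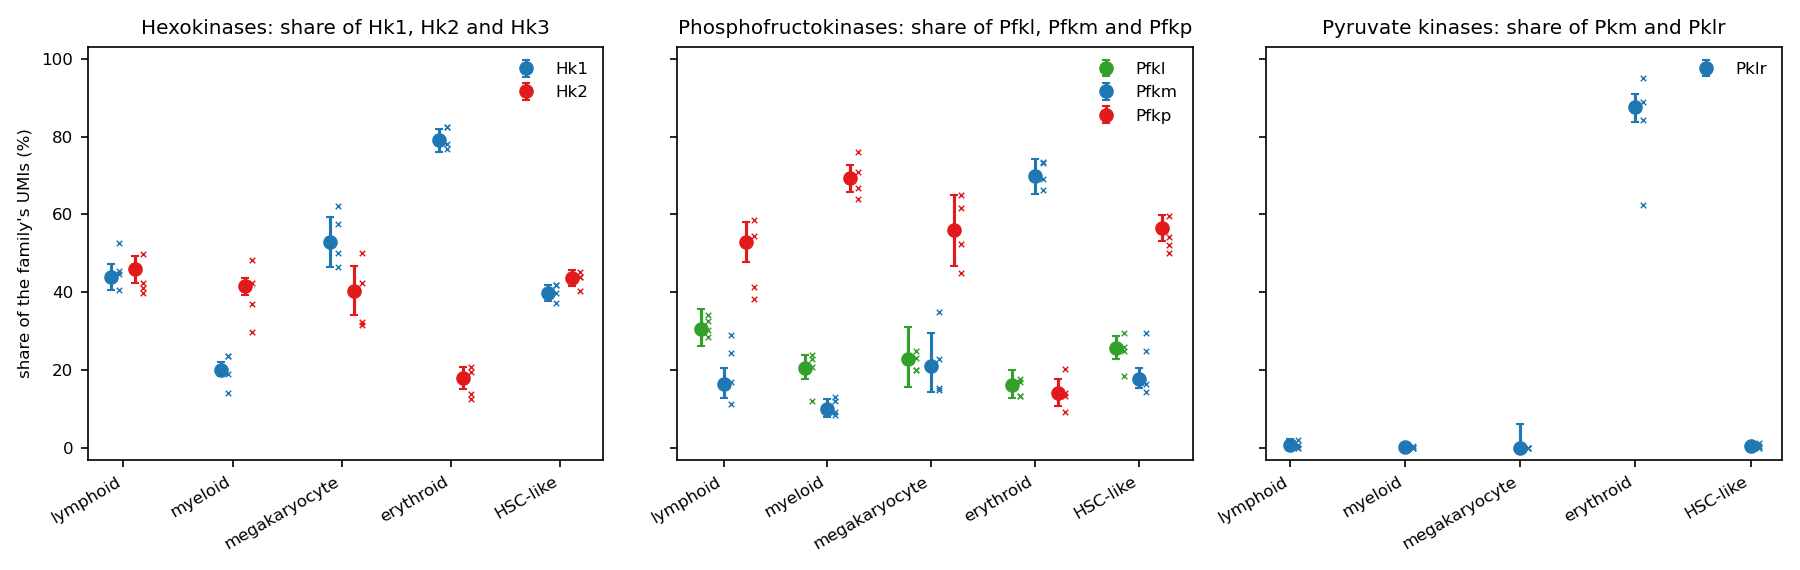
Share of a family's UMIs (y axes, %) taken by single genes in 5 classes, for hexokinases, phosphofructokinases and pyruvate kinases. Circles are all barcode sets with 95% Clopper-Pearson intervals and crosses are single sets. In erythroid progenitor-like nuclei Hk1, Pfkm and Pklr take 79.1%, 69.8% and 87.6%, above every other class drawn.

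Myeloid progenitor-like nuclei had higher levels of 2 of the 10 genes, Gpi1 and Pgam1, and 0 were called lower. Over the 11147 measured genes 5.27% were called higher, 10.6% lower and 15.9% either way. The median log2 ratio of the 10 genes was 0.44, against -0.04 over all measured genes, and ran from 0.24 in set 3 to 0.65 in set 2. Cell cycle genes marked 80.6% of the myeloid and 41.8% of the HSC-like nuclei. With only cycling nuclei on both sides, a setting chosen after seeing the data, the median was 0.48 and the same 2 genes were called.

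Gpi1 stood at 162, 202, 154 and 152 CPM in myeloid progenitor-like nuclei of sets 1 to 4, against 79.3, 77.3, 73.4 and 71.7 CPM in HSC-like nuclei. The groups did not overlap and the ratio was 2.25 (2.03 to 2.50). Pgam1 stood at 72.6, 102, 54.2 and 79.8 CPM, against 24.5, 42.6, 22.1 and 31.1 CPM in HSC-like nuclei, also without overlap, a ratio of 2.69 (2.30 to 3.16). Both calls were lost among nuclei under 10% mitochondrial UMIs, which left 159 myeloid and 676 HSC-like nuclei, at log2 ratios of 0.89 and 0.89, and that of Pgam1 when nuclei were thinned, at 1.02.

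Another 5 genes lay higher without a call, at log2 ratios from 0.41 to 0.55. Pfkp had 90.8 against 58.9 CPM (ratio 1.54, 1.36 to 1.75), higher in all 4 sets but just under 1.5-fold once 10 was added. Pgk1 had 48.4 against 30.9 CPM, Pkm 108 against 75.4 CPM, Aldoa 33.4 against 22.4 CPM and Hk2 154 against 114 CPM, each with an interval of the ratio above 1 and, except Aldoa with 3, higher in all 4 sets. When 4 markers were needed to enter a class, Pfkp, Aldoa and Pkm were called as well, with 1 added Pfkp (0.62) and Pgk1 (0.63) were, with barcode sets weighted equally Pfkp (0.65) was, after thinning Hk2 (0.61) and Pkm (0.74) were, and without barcode set 4 Pfkp was, at 0.73.

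Pfkl had 27.0 against 26.9 CPM, with an interval of the ratio from 0.809 to 1.24. The 2 genes lower in myeloid progenitor-like nuclei without a call were Slc2a1, at 18.4 against 28.4 CPM (ratio 0.646, 0.506 to 0.821), and Hk1, at 74.8 against 104 CPM (ratio 0.719, 0.637 to 0.810). Slc2a1 was called lower with 1 added in place of 10, at a log2 ratio of -0.60. Both genes act at the entry of the route, and both were lower in all 4 sets. The hexokinase genes Hk2 (154 against 114 CPM) and Hk3 (142 against 43.1 CPM) act at the same step as Hk1 and were higher. Hk1 therefore does not describe the hexokinase step as a whole. At the transport step Slc2a3 was called lower, at 60.8 against 124 CPM, the same direction as Slc2a1.

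Of the wider list 8 of 37 measured genes were called higher in myeloid progenitor-like nuclei and 3 lower. Beside these stand 5.27% and 10.6% of all measured genes, so that the number lower was close to the background. Hk3, a hexokinase gene of myeloid cells, had 142 against 43.1 CPM in HSC-like nuclei (ratio 3.30, 2.91 to 3.75), and Pgd, of the pentose phosphate route, 61.2 against 17.2 CPM (3.56, 2.92 to 4.36). Tkt, Slc16a1, Tpi1, Taldo1, Gapdh and Eno1 were higher too, of which Tpi1 (74.1 against 36.6 CPM) and Gapdh (67.3 against 35.6 CPM) carry the steps between aldolase and Pgk1. Lower were Slc2a3, at 60.8 against 124 CPM, Txnip, whose product limits glucose uptake, at 53.8 against 113 CPM, and Pdk3. Hk1 took 20.1% (18.4 to 21.98%) of hexokinase UMIs, against 39.8% in HSC-like nuclei, and Pfkp 69.3% (65.8 to 72.7%) of phosphofructokinase UMIs, against 56.4% (53.1 to 59.7%). Pfkm was not called, at 13.1 against 18.6 CPM, and Pklr had 1 UMI.

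**Figure D4:**
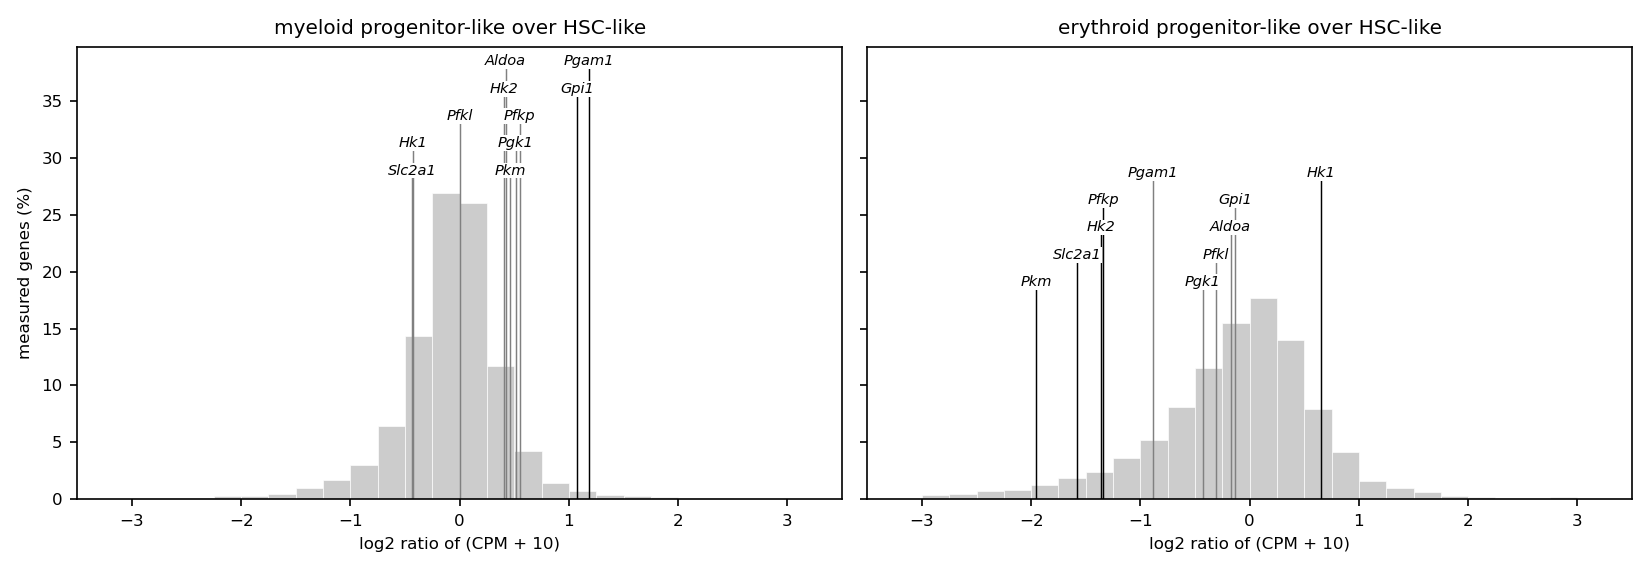
Distribution of the log2 ratio of CPM plus 10 over all measured genes (grey bars, % of genes) for myeloid and erythroid progenitor-like over HSC-like nuclei, with the 10 genes marked by lines, black where called. In the myeloid panel Gpi1 and Pgam1 stand at 1.07 and 1.18, and in the erythroid panel the genes spread from -1.95 for Pkm to 0.65 for Hk1.

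Among the smaller classes with at least 50 nuclei, monocyte and dendritic cell-like nuclei had the highest levels of Hk2 and Pfkp. Hk2 stood at 185, 393, 195 and 215 CPM in sets 1 to 4, against 84.2, 119.9, 114 and 121 CPM in HSC-like nuclei, and was 1.94 times the HSC-like level (1.63 to 2.31). Pfkp stood at 67.1, 214, 324 and 268 CPM, against 41.7, 48.6, 55.6 and 68.2 CPM in HSC-like nuclei, and was 4.43 times that level (3.71 to 5.26). Set 1, with 25 of the nuclei, held the low value of Pfkp, which lay within the HSC-like range. Pfkp took 89.1% (83.9 to 93.0%) of phosphofructokinase UMIs there. Hk1 (51.0 CPM) and Pkm (39.4 CPM) were below HSC-like levels, at ratios of 0.490 (0.339 to 0.687) and 0.522 (0.341 to 0.767).

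Neutrophil-like nuclei, 104 in number and nearly all from sets 1 and 3, carried Gpi1 at 2.42 times (1.72 to 3.34) and Pfkp at 1.75 times (1.10 to 2.66) the HSC-like level. Plasma cell-like nuclei, secretory cells with Malat1 at 38827 CPM, had the lowest levels of Hk1, Hk2, Gpi1 and Pfkl of the 10 ordered classes. Their ratios to HSC-like nuclei were 0.380 (0.224 to 0.604) for Hk1, 0.270 (0.147 to 0.455) for Hk2 and 0.386 (0.205 to 0.665) for Gpi1. In B lineage-like nuclei Hk1 (41.4 CPM) and Hk2 (53.6 CPM) were below HSC-like levels, at 0.398 (0.231 to 0.641) and 0.470 (0.293 to 0.716), while the interval for Gpi1 held 1 (ratio 1.09, 0.742 to 1.54).

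Lymphoid progenitor-like nuclei had 0 of the 10 genes called, where 3.6% of 11149 measured genes were higher, 5.6% lower and 9.19% either way. The median log2 ratio was -0.19, against -0.01 over all measured genes. The lowest were Hk2, at 81.4 against 114 CPM in HSC-like nuclei (ratio 0.714, 0.633 to 0.804), Pfkp, at 41.5 against 58.9 CPM (0.705, 0.595 to 0.832), and Hk1, at 78.1 against 104 CPM (0.750, 0.663 to 0.848), each lower in all 4 sets. Without barcode set 4 Hk2 was called lower at -0.72. The other genes were between 0.766 for Slc2a1 and 1.07 for Gpi1. Of the wider list, Egln1 was higher, at 74.6 against 23.7 CPM, and Hk3, Pdk3 and Slc2a3 were lower, out of 36 measured. Pfkm was not called, at 12.9 against 18.6 CPM.

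Megakaryocyte-like nuclei had 0 of the 10 genes called as well, where 3.51% of 10449 measured genes were higher, 8.24% lower and 11.8% either way. The class held 206 nuclei, so intervals were wide. The median log2 ratio was -0.14, against -0.03 over all measured genes, but by set it was -0.15, 0.06, 0.06 and -0.21, without 1 direction. The largest differences were of Pgam1, at 15.9 against 29.8 CPM in HSC-like nuclei (ratio 0.533, 0.311 to 0.860), and Slc2a1, at 15.9 against 28.4 CPM (0.558, 0.325 to 0.900), each resting on 18 UMIs and not in 1 direction over the sets. Pgam1 stood at 17.9, 15.1, 36.2 and 0 CPM in megakaryocyte-like nuclei of sets 1 to 4, against 24.5, 42.6, 22.1 and 31.1 CPM in HSC-like nuclei. Without barcode set 1 Slc2a1 was called lower at -0.71, and without barcode set 3 Pgam1 at -1.18 and Pkm at -0.66. Hk1 had 115 against 104 CPM (1.10, 0.909 to 1.32). Of 35 measured genes of the wider list 3 were lower, Egln3 (3.53 against 25.6 CPM), Hk3 (15.0 against 43.1 CPM) and Ldhb, and 0 were higher, with Slc2a3 at 126 against 124 CPM and Pfkm at 22.9 against 18.6 CPM.

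Cycling HSC-like nuclei, 709 in number, were set against 986 non-cycling HSC-like nuclei to ask whether the genes follow cell division within 1 class. None of the 10 was called, where 3.71% of 10208 measured genes were higher, 2.35% lower and 6.06% either way. Log2 ratios lay between -0.17 for Gpi1 (69.9 against 79.9 CPM) and 0.16 for Pfkp (62.0 against 54.4 CPM), and all 10 intervals of the ratio held 1. Pkm had 75.5 against 75.2 CPM, with an interval of 0.855 to 1.18, and Hk2 112 against 117 CPM, with an interval of 0.843 to 1.09. Median depth was 6094 UMIs in cycling and 2969 in non-cycling nuclei, which follows in part from the gate. Of the wider list 2 genes were lower and 0 higher: Txnip, at 87.3 against 151 CPM, and Pfkfb4, an enzyme that sets the level of a phosphofructokinase activator, at 12.8 against 26.3 CPM. Slc2a3 was not called, at 112 against 143 CPM, nor were Hk3, at 39.2 against 48.9 CPM, and Pfkm, at 16.7 against 21.4 CPM.

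Pgam2 had at most 1 UMI in each progenitor-like or HSC-like class and Aldoc at most 7, too few for a comparison.

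The 10 genes were not alike over 12 classes with at least 100 nuclei, with HSC-like and ungated nuclei split by cycling. As a description, Pearson's r of log2(CPM + 10) over these 12 classes of 1 table ran from -0.54 between Hk1 and Slc2a1 to 0.79 between Gpi1 and Pfkl and between Pgam1 and Pkm. Hk1 had an r below 0 with 6 of the other 9 genes. Among 8121 genes with at least 500 UMIs, Hk1 was most like Nmnat3 (0.97) and Lncppara (0.96), Pkm most like Pcnx (0.95) and Tnfaip8 (0.94), and Hk2 most like Kcnip3 (0.95) and Mctp1 (0.95). Gpi1 was most like Nin (0.95) and Tmem43 (0.95), Pgam1 most like Gfi1 (0.92) and Serpinb1a (0.89), and Pfkp most like Lrrk2 (0.94) and Tmsb4x (0.93). Slc2a1 was most like Sptan1 (0.94) and Plcg2 (0.92), Pfkl most like Prdx5 (0.93) and Mettl9 (0.93), Aldoa most like Mgat2 (0.92) and Fam173a (0.83), and Pgk1 most like Tcirg1 (0.90) and Gfod1 (0.88).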

How the data were processed

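Per the labels, nuclei of sorted marrow cells went through the 10x multiome assay. The authors deposited UMI counts per gene and nucleus, with no normalization, and the values were checked to be whole numbers. Per the submitters' processing notes Cell Ranger ARC, Seurat and Signac were used with mm10. Their versions, the annotation and the filters on nuclei are not given in the sources used here. All 8708 deposited nuclei were kept, and 0 further columns of per-sample values were left unused.

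The 10 genes, the marker lists and the wider list of 50 genes were chosen with earlier results of these data known. Each nucleus was gated on 13 lists of 8 markers, and ties were left ungated. Counts were summed per class and divided by non-mitochondrial UMIs per 1000000. Genes with at least 50 UMIs over both classes were measured. Intervals at 95% are exact: Poisson for CPM, binomial for ratios and Clopper-Pearson for shares. They cover counting error only. The planned count test of T58A against WT could not be run, because no source ties barcodes to samples, so no p-value was made. Of the wider list the text names the 2 highest and 2 lowest called per comparison and the paralogs of the 10 genes; any other gene of it was named after its values were seen. The likeness ranking took the 2 genes with the highest r. Motifs were searched on both strands of RefSeq windows.

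The rule was tested on simulated counts drawn for each of the 5 comparisons. Set-to-set scatter was set to 0.2 on the natural log scale and not estimated from the barcode sets. Changed genes, 50 of each kind, were drawn from those with at least 20 CPM in the comparison class. The rule found 78 to 86% of genes raised 2-fold and 100% of genes raised 4-fold. It found 64 to 86% of genes lowered 2-fold and 98 to 100% of genes lowered 4-fold. Of unchanged measured genes of any level it called 0.262 to 1.26%, which is not an error rate at the levels of the 10 genes. Python 3.11.15, NumPy 2.4.6, SciPy 1.17.1, pandas 2.3.3 and matplotlib 3.10.9 were used. Settings tried were 2 or 4 markers, nuclei of several classes left out, all UMIs as denominator, thinning to 2000 UMIs before gating, sets weighted equally, nuclei under 10% mitochondrial UMIs, the deepest 5% left out, 1 added, a minimum of 20 counts, and each barcode set left out. A further setting, chosen after seeing the data, kept only cycling nuclei on both sides, in all comparisons but the cycling one.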

Additional observations from a re-analysis of the deposited data

How the results depend on the processing

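No paired analysis was possible because no source ties the barcode sets to samples, so replicate numbers could not be used. Median log2 ratios of the 10 genes over all barcode sets together kept their sign in all settings run: 0.35 to 0.57 for myeloid, -0.95 to -0.37 for erythroid, -0.36 to -0.13 for lymphoid, -0.29 to -0.06 for megakaryocyte and -0.14 to -0.01 for cycling HSC-like nuclei. Thinned to 2000 UMIs per nucleus the median was -0.36 for lymphoid and -0.95 for erythroid progenitor-like nuclei. It was -0.29 for megakaryocyte-like nuclei with nuclei of several classes left out, and for the erythroid class -0.37 with sets weighted equally and -0.94 with 1 added. The share of all measured genes called under each setting is not given here, so the counts below are not read as a result about these genes. The number of genes called in the myeloid class was 5 with 4 markers, 5 with 1 added and 0 among nuclei under 10% mitochondrial UMIs, against 2 in the report. For the megakaryocyte-like class it was 1 with 2 markers, 1 with 4 markers, 1 after thinning and 1 under 10% mitochondrial UMIs, against 0. For the erythroid class it was 1 under 10% mitochondrial UMIs, with 26 nuclei, against 5. Leaving out each barcode set in turn gave 0 to 1 called in the lymphoid, 2 to 3 in the myeloid, 0 to 2 in the megakaryocyte-like, 5 to 6 in the erythroid and 0 in the cycling comparison. Leaving a set out gave medians of -0.26 to -0.13, 0.37 to 0.50, -0.18 to -0.09, -0.71 to -0.59 and -0.14 to -0.01 in the same order. The cause was not tested. For single genes 707 values under other settings kept their call, 22 gained a call and 11 lost it, and no called gene turned direction. Counting error limits Slc2a1 in the erythroid and Pgam1 in the megakaryocyte-like class, and set 2 held 12 erythroid nuclei.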
